A study of Mus musculus with 22 samples.

Results

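The genes described here are those of the enzymes that join glucuronic acid, glutathione or sulfate to other molecules, read in 6 cell types sorted from the mouse colon crypt. Members were taken by symbol alone, as every gene of the count files whose name begins with Ugt1a or Ugt2, with Gst and 1 of the class letters a, m, o, p, t and z, with Mgst or with Sult, the last 3 kinds followed by a digit. The rule found 60 of the 24421 genes in the files, and no measured value entered the choice. They are 18 UDP-glucuronosyltransferase genes, 20 cytosolic glutathione transferase genes, 3 microsomal glutathione transferase genes and 19 sulfotransferase genes.

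RNA of 22 libraries was sequenced, 3 of stem cells (Stem), 3 of absorptive progenitors (AbsPro), 4 of a secretory population (SecPDG), 5 of tuft cells (Tuft), 5 of enterocytes (Ent) and 2 of enteroendocrine cells (EEC). The study describes SecPDG as deep crypt secretory cells and secretory progenitors in the main, perhaps with a few goblet cells. All came from the colon of wild type male mice of the strain C57BL/6N, aged 5 to 7 weeks, with no treatment and no transgene. Live cells positive for Epcam and negative for Cd31 and Cd45 were divided by 3 surface proteins. Stem and AbsPro carried low Cd24 and no Ckit and were split by Cd44, which was highest on Stem and medium to high on AbsPro. By the labels, SecPDG carried high Cd44 with medium Cd24 and Ckit, and Tuft carried Ckit with high Cd24. The text of the study differs from the label, giving SecPDG medium Cd44 and describing Kit protein as seen on tuft cells alone. Ent and EEC both had low or no Cd44, and EEC differed from Ent by the presence of Cd24. By the study's methods, each Stem and AbsPro library was 1 mouse and the other libraries pooled several, so that a group's spread is between mice in the first case and between pools in the second.

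Conjugating enzymes make lipid-soluble molecules, such as drugs, plant phenols, bilirubin, steroids and products of lipid oxidation, more soluble in water, so that membrane pumps can move them out of the cell. UDP-glucuronosyltransferases work inside the endoplasmic reticulum with UDP-glucuronic acid, glutathione transferases use glutathione, and sulfotransferases use the activated sulfate PAPS. The intestinal epithelium meets such molecules first, and the colon also meets conjugates that bile delivers and that bacteria split again.

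Counts on genes ran from 4122122 to 22462518 a library, and the 60 genes took 0.237% to 0.379% of them in Stem and AbsPro, 0.099% to 0.142% in SecPDG, 0.098% to 0.129% in Tuft, 0.242% to 0.293% in Ent and 0.096% and 0.168% in the 2 EEC libraries. Values below are normalized counts, which are counts scaled by TMM to a library of mean size. Reads outside genes are given as a share of the reads on genes and outside genes together. They made up 41.3% to 49.8% in Stem, AbsPro and SecPDG, 43.9% to 68.4% in Tuft, 67.2% to 83.3% in Ent and 64.9% and 89.9% in EEC. Olfactory, vomeronasal and trace amine receptor, keratin-associated protein and beta-defensin genes, most of which colon cells are not expected to use, served as an estimate of background. Whether a sorted cell type uses single genes of these families was not tested, and such use would raise the estimate. They held 13.6 to 161.5 CPM in Stem, AbsPro and SecPDG, 185.2 to 1521.4 in Tuft, 806.3 to 4016.4 in Ent and 636.2 and 7264.5 in EEC. EEC library 1 stood apart, with the fewest counts and a Spearman correlation of 0.696 with EEC library 2, while pairs within the other cell types lay between 0.87 and 0.969. Fitted values of EEC rest on these 2 unequal libraries, and helper genes there are given by their fitted values alone. The labelled cell types carried their markers: 6 tuft markers summed to at least 25099 in Tuft and at most 8152 elsewhere, 6 enteroendocrine markers to at least 598302 in EEC and at most 27241 elsewhere, and 4 stem cell markers to at least 8694 in Stem and at most 5485 elsewhere. The 6 enterocyte markers summed to 23789 to 28512 in Ent, but to 19321 and 57634 in EEC. The 9 goblet and secretory markers summed to 827198 to 3247474 in SecPDG and to 786158 to 1186600 in Tuft, against 237846 to 711542 in Ent, 91316 to 282373 in AbsPro and 21614 to 35259 in Stem, with none of the 9 at 0 in any cell type. The 7 immune markers summed to 1211 to 2224 in SecPDG and 1865 to 4076 in Tuft, against 70 to 113 in Stem, 110 to 320 in AbsPro, 294 to 654 in Ent and 432 and 1434 in EEC. Cd79a was at 0 in both EEC libraries. The 5 stromal markers ran from 9 to 102 in SecPDG, where Dcn was at 0, to 406 to 1150 in Ent and 288 and 2063 in EEC, with 32 to 192 in Stem, 29 to 1228 in AbsPro and 107 to 547 in Tuft. The 4 endothelial markers ran from 37 to 298 in Stem, AbsPro and SecPDG, 231 to 715 in Tuft and 464 to 1158 in Ent, with 1303 and 1859 in EEC. The part of such cells in the differences below was not tested. In pooled RNA of this kind, fewer cells of a type and less RNA per cell cannot be told apart. The count files of SecPDG and Tuft also bear another form of name than those of the other 4 cell types, and whatever that form records cannot be told apart from the cell type.

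Of the 60 genes, 31 averaged 50 or more normalized counts across the 22 libraries. Per kilobase of exon that no other member covers, Sult1a1, a phenol sulfotransferase, had the highest level of the 60 in Stem (mean 4799 normalized counts per kilobase), in AbsPro (5242) and in Ent (1949). In SecPDG the highest level per kilobase belonged to Gstm1, a mu class glutathione transferase (1692), and in Tuft to Mgst3, a microsomal glutathione transferase (1419). The EEC mean was also highest for Mgst3 (1558), but library 2 carried it, since the EEC libraries held 351 and 3069 normalized counts of Mgst3 and 667 and 1342 of Gstm1. The 5 highest genes made up 49.6% to 56.8% of the summed level per kilobase in each cell type. In every cell type these 5 places were held by genes among Sult1a1, Gstm1, Gsto1, Mgst3, Sult1d1, Ugt1a7c and Ugt2b34.

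The 4 classes differed between the cell types on the scale of summed normalized counts. Sulfotransferases summed to 7980, 13846 and 13185 in the Stem libraries and 15273, 15530 and 21012 in AbsPro, against 3022, 3779, 4636 and 4646 in SecPDG and 3167, 3166, 2635, 2381 and 4006 in Tuft. Ent libraries held 7767, 9962, 8220, 11903 and 14565, and EEC libraries held 1723 and 9826. Every Stem, AbsPro and Ent library thus lay above every SecPDG and Tuft library for this class. UDP-glucuronosyltransferases had means of 9699 ± 1608 (SD, n = 3) in Stem and 13177 ± 1552 (SD, n = 3) in AbsPro. Their means were 5509 ± 879 (SD, n = 4) in SecPDG and 3689 ± 940 (SD, n = 5) in Tuft, and 7384 ± 2053 (SD, n = 5) in Ent, and the EEC libraries held 1209 and 6193. Cytosolic glutathione transferases stood at 16807 ± 798 (SD, n = 3) in Stem and 18964 ± 800 (SD, n = 3) in AbsPro, and at 8497 ± 3144 (SD, n = 5) in Ent, below both in every library, while EEC libraries held 3677 and 6936. Over all 60 genes, the Ent and Tuft libraries with the fewest reads outside genes had the highest sums of their cell type. In Ent they were 39219 and 38558 in libraries 4 and 5, with 67.2% and 69.2% of reads outside genes, and 20047 to 27678 in libraries 1 to 3, with 81.3% to 83.3%. In Tuft the sum was 21983 in library 5, with 43.9%, and 13299 to 17248 in the other 4, with 59.9% to 68.4%. Among the remaining Ent and Tuft libraries the order did not hold. Tuft library 1, with 59.9%, summed to 14256, below the 17248 of library 3, with 68.0%. Ent library 1, with 83.3%, summed to 22817, above the 20047 of library 3, with 82.3%. AbsPro and SecPDG did not follow that order throughout either. The highest AbsPro sum, 59120, lay in the library with the most such reads (49.8%), and the lowest SecPDG sum, 18952 with 43.2%, was below the 21913 of the library with 47.2%. The part of these reads in the levels was not tested. Sums are shown without a test, since the members of a class share libraries and some share reads.

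**Figure D1:**
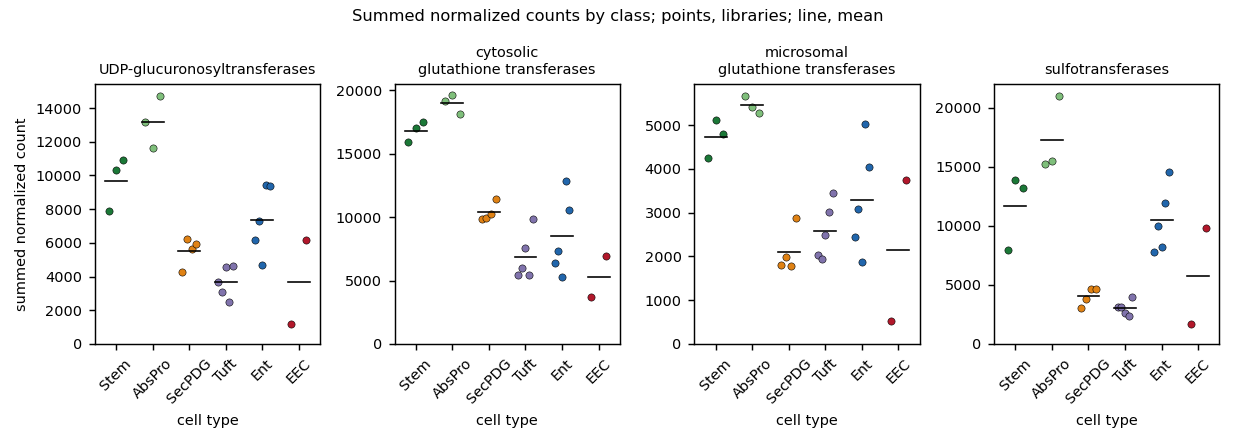
Summed normalized counts of the 4 enzyme classes (vertical axis) in each library (points) by cell type (horizontal axis), with the mean of the cell type as a line. Sulfotransferases sit between 2381 and 4646 in the SecPDG and Tuft libraries and between 7767 and 21012 in the Stem, AbsPro and Ent libraries.

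Each gene was compared between cell types with edgeR's quasi-likelihood test, fitted to all 22 libraries, and a call means an adjusted p below 0.01 (Benjamini-Hochberg, 22781 genes tested) together with an average of 50 or more. All 60 genes passed the filter on low counts, so the 29 below the mean of 50 were tested but could not be called. Calls were repeated under 10 other settings, 2 of them chosen after seeing the data, and without each of the 22 libraries in turn. The setting of the test reported was settled after results with the package's default setting had been seen, and the default, also given here, called fewer genes. Against Stem, 1 of the 60 was called higher and 11 lower in SecPDG, where 3.38% and 1.6% of all genes were called. The default called 1 and 6 there, with 3.1% of all genes called. Leaving out Stem library 2 or Stem library 3 left 7 of the 12 calls in SecPDG, with 4.13% and 4.09% of all genes called. In Tuft 1 was called higher and 16 lower, against 7.83% and 4.23% of all genes. In Ent 3 were called higher and 10 lower, against 10.7% and 11.5% of all genes. The default called 1 and 5 in Ent, with 13.5% of all genes called. In EEC none was called higher and 13 lower, against 10.8% and 9.14% of all genes. A fit of the EEC and Stem libraries alone called 6, with 8.06% of all genes called. The split in EEC moved with the scaling. DESeq2 size factors called 2 higher and 11 lower there, and library totals 1 and 13, with 25% and 23.8% of all genes called. DESeq2's test called 1 higher and 10 lower, with 23.3% of all genes called. No member was called in AbsPro against Stem, where 0.496% of all genes were called higher and 0.0922% lower, and DESeq2 also called none. Of the 31 genes with a mean of at least 50, 5 had an unadjusted edgeR p under 0.05 there. The share of all genes under that p was not taken.

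Between the other pairs, AbsPro against SecPDG gave 12 members called higher and none lower, where 1.73% and 2% of all genes were called. Ent against AbsPro gave none higher and 11 lower, where 8.2% and 7.98% of all genes were called. The default setting called 3 there and DESeq2 called 2 higher and 3 lower, with 5.09% and 15.4% of all genes called. The count was 17 without Stem library 2, Stem library 3 or Tuft library 4. The share of all genes called rose there too, from 16.2% in the fit reported to 23.6%, 23.6% and 23.3%. Tuft against SecPDG gave no called member in edgeR, where 3.01% of all genes were called higher and 0.347% lower. Of the 31 genes with a mean of at least 50, 8 had an unadjusted edgeR p under 0.05 there. The share of all genes under that p was not taken for this pair either. DESeq2 called 4 there, with 6.76% of all genes called, and edgeR called 2 without Tuft library 5, with 6.04%. These comparisons share libraries, so their counts are not separate evidence.

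The median log2 fold change of the 31 genes against Stem was 0.26 in AbsPro, -0.94 in SecPDG, -1.26 in Tuft, -0.65 in Ent and -1.08 in EEC, beside 0.04, -0.06, -0.09, -0.30 and -0.30 for the 13188 genes with the same mean level. The scaling moves these values: with the size factors of DESeq2 the median of all genes was 0.23 in Ent and 0.31 in EEC, and that of the 31 genes was -0.12 and -0.52. Changes in Ent and EEC are thus to be read against a shift of all genes of about that size. With those factors 7 members were called higher and 6 lower in Ent, where 26.7% of all genes were called. Library totals called 7 each way in Ent, with 25.7% of all genes called. Of all genes called in Ent against Stem, 48.3% were higher with TMM, 75.6% with the size factors of DESeq2 and 70.9% with library totals. The same shares were 54.2%, 77.3% and 63.7% in EEC against Stem, 50.7%, 83.5% and 80.1% in Ent against AbsPro, 67.9%, 67.3% and 44.1% in SecPDG against Stem and 46.3%, 42.4% and 59.6% in AbsPro against SecPDG. In SecPDG against Stem the medians of the 31 genes and of all genes were -0.93 and -0.05 with DESeq2 size factors and -1.17 and -0.29 with library totals, and in Tuft they were -1.09 and 0.11, and -1.21 and -0.03.

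**Figure D2:**
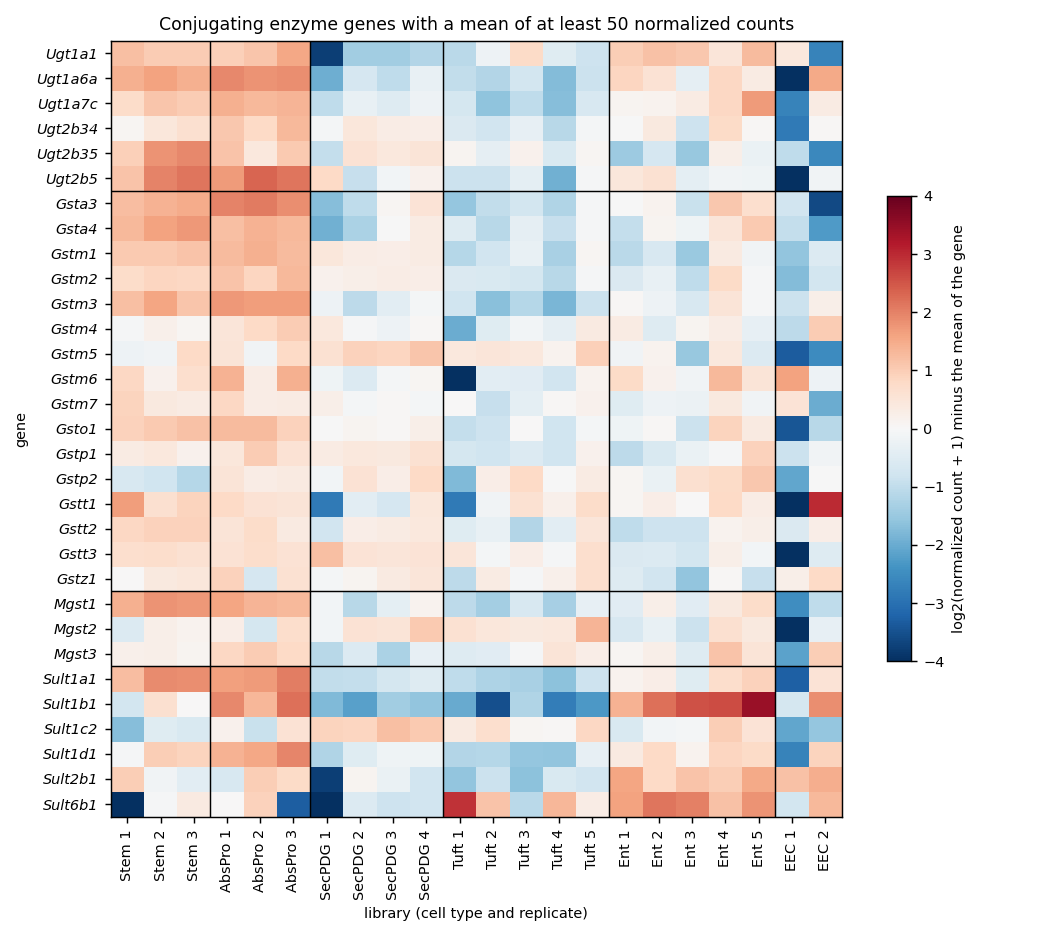
Log2 of the normalized count plus 1, less the mean of the gene over the 22 libraries, as colour from -4 to 4 (values beyond are drawn at the end of the scale), for the 31 genes with a mean of at least 50 (rows) in each library (columns). Sult1a1, Mgst1 and Gsta4 are red in the 6 Stem and AbsPro libraries and blue or pale in SecPDG and Tuft.

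**Figure D3:**
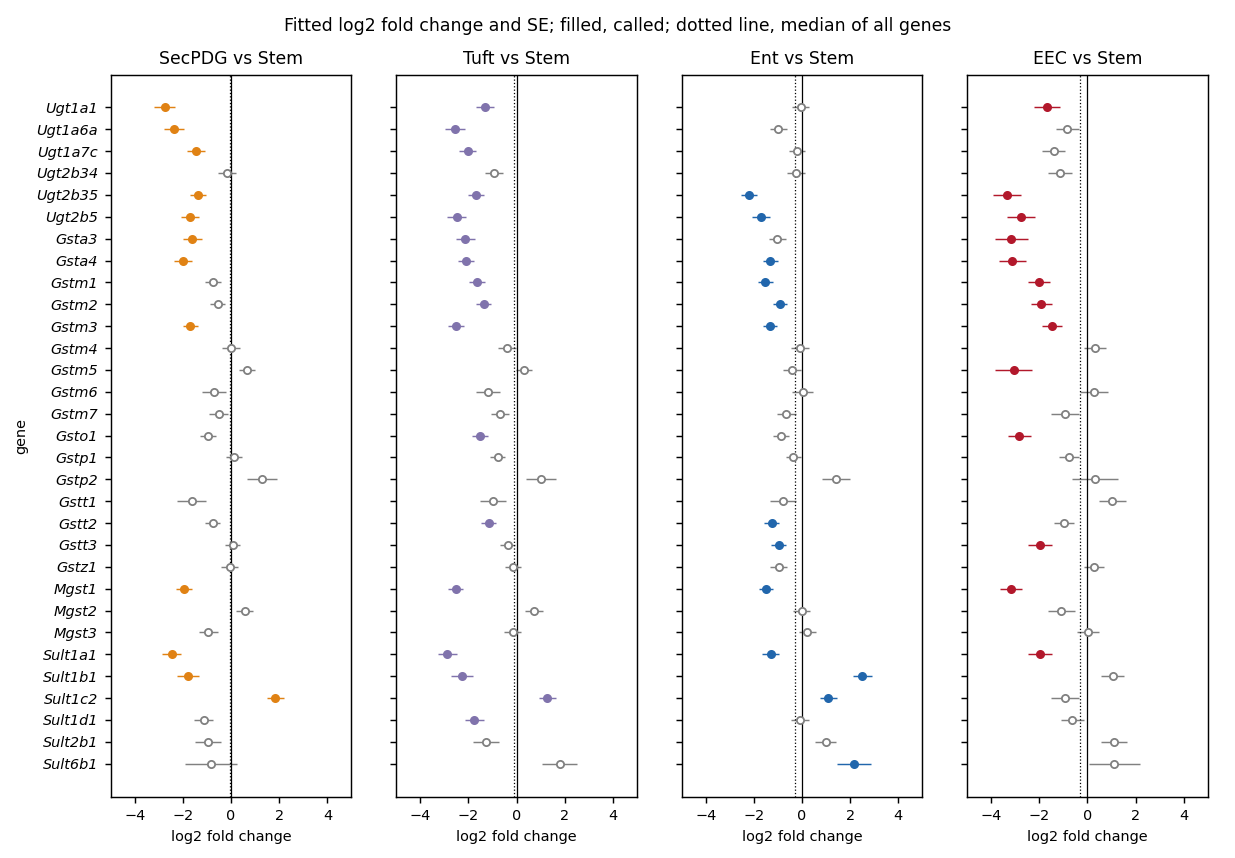
Fitted log2 fold change against Stem (horizontal axis) with its SE for the 31 genes (vertical axis) in SecPDG, Tuft, Ent and EEC; filled points are called and the dotted line is the median of all genes with a mean of at least 50. Of the filled points, 11 of 12 lie left of 0 in SecPDG, 16 of 17 in Tuft, 10 of 13 in Ent and 13 of 13 in EEC.

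Of the 8 Ugt1a genes, Ugt1a7c, Ugt1a6a and Ugt1a1 reached the mean of 50. They lie in 1 locus on chromosome 1 (mm10, 88055388 to 88220002), where each gene has its own first exon and all share the remaining exons. Reads on the shared exons were dropped by the authors' counting, so that a Ugt1a count rests on 879 to 2142 unshared bases. Ugt1a1, which conjugates bilirubin, stood at 481, 424 and 417 normalized counts in Stem, 404, 451 and 610.5 in AbsPro and 411, 474, 438, 294 and 499.8 in Ent. In SecPDG it stood at 14.2, 78.3, 78.3 and 91.1, in Tuft at 98.9, 182, 354, 147 and 116 and in EEC at 277 and 31.5. All SecPDG libraries lay below all those of Stem, AbsPro, Tuft and Ent, and Ugt1a1 fell in SecPDG against Stem (log2 fold change -2.76 ± 0.45 SE, adjusted p = 6.24e-06) and was higher in AbsPro than in SecPDG (log2 fold change 2.90 ± 0.45 SE, adjusted p = 3.2e-06). Both calls held under all 10 other settings and without each library in turn. Its lower level in Tuft (log2 fold change -1.32 ± 0.37 SE, adjusted p = 0.00548) was called under 5 of the 10 other settings, not by DESeq2 or the default of edgeR, and was lost without any 1 of the Stem libraries or of Tuft libraries 1, 2, 4 and 5. The EEC value (log2 fold change -1.69 ± 0.55 SE, adjusted p = 0.00992) was called under 3 of the 10 settings and was -0.67 (adjusted p = 0.338) without EEC library 2.

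Ugt1a6a, an enzyme for planar phenols, had 646, 728 and 649 normalized counts in Stem and 905, 842 and 875 in AbsPro, against 60.5, 149, 119 and 195 in SecPDG and 119.6, 105, 143, 71.3 and 130.5 in Tuft. The 2 pairs of cell types did not overlap. It fell in SecPDG (log2 fold change -2.38 ± 0.41 SE, adjusted p = 2.38e-05) and in Tuft (log2 fold change -2.56 ± 0.40 SE, adjusted p = 1.72e-06), and both calls held under every other setting and omission. In Ent it stood at 433, 361, 188, 428 and 298, lower than in AbsPro (log2 fold change -1.36 ± 0.35 SE, adjusted p = 0.00198) but not with DESeq2 size factors, library totals, DESeq2's test or edgeR's default. Ugt1a7c was the most abundant of the locus, with 2348, 3070.2 and 2840.2 in Stem, 691, 1135, 978 and 1221 in SecPDG, 863, 464, 693, 435 and 900.1 in Tuft. Ent held 1534, 1566, 1763, 2507 and 4553. Ugt1a7c fell in Tuft (log2 fold change -2.03 ± 0.36 SE, adjusted p = 1.87e-05), and in Ent it did not pass the test (log2 fold change -0.21 ± 0.35 SE, adjusted p = 0.604). Ent and Stem libraries overlapped for Ugt1a1 and Ugt1a7c and not for Ugt1a6a. In the 2 EEC libraries Ugt1a6a stood at 10.8 and 684 and Ugt1a7c at 219 and 1784.

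Ugt2b genes conjugate steroids, bile acids and drugs, and 3 of the 7 reached the mean of 50. Ugt2b34 had the highest mean count of the UDP-glucuronosyltransferase genes, with 4191 ± 810.2 normalized counts (SD, n = 3) in Stem and 6667 ± 1157 (SD, n = 3) in AbsPro. Its means were 3737 ± 529 (SD, n = 4) in SecPDG and 2181 ± 589.7 (SD, n = 5) in Tuft, and 3528 ± 1317 (SD, n = 5) in Ent. It was called in none of the 8 comparisons, although every AbsPro library lay above every Stem, SecPDG, Tuft and Ent library. Ugt2b5, also on chromosome 5, stood at 398, 709 and 788 in Stem and 587, 892 and 794 in AbsPro, against 312, 94.5, 164 and 202 in SecPDG, 97.6, 97.2, 136, 46.0 and 172 in Tuft and 243, 275, 135, 163 and 158 in Ent. It fell in Tuft (log2 fold change -2.49 ± 0.38 SE, adjusted p = 1.14e-06) under every setting and omission. Its call in SecPDG (log2 fold change -1.69 ± 0.37 SE, adjusted p = 0.000935) was lost under DESeq2 and edgeR's default, and without Stem library 2 (-1.50, adjusted p = 0.0159), Stem library 3 (-1.46, adjusted p = 0.0199) or SecPDG library 2 (-1.43, adjusted p = 0.015).

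Ugt2b35 showed another order, with its highest values in Stem. It had 551, 997 and 1079.5 normalized counts in Stem, 625, 386 and 587 in AbsPro, 148, 424, 382 and 406 in SecPDG, 311, 223, 321, 188 and 304 in Tuft, 104, 179, 99.4, 338 and 235 in Ent and 139 and 47.3 in EEC. It fell in Ent (log2 fold change -2.19 ± 0.34 SE, adjusted p = 1.5e-06), Tuft (log2 fold change -1.70 ± 0.33 SE, adjusted p = 8.8e-05) and EEC (log2 fold change -3.35 ± 0.57 SE, adjusted p = 4.91e-06), each under every setting and omission, and no Ent, Tuft or EEC library reached the lowest Stem library. AbsPro and Stem overlapped and the difference did not pass (log2 fold change -0.72 ± 0.35 SE, adjusted p = 0.517).

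Among the alpha class glutathione transferases, Gsta4, which conjugates the lipid oxidation product 4-hydroxynonenal, and Gsta3 reached the mean of 50, and Gsta1 and Gsta2 did not. Gsta4 had 1092, 1368 and 1464 normalized counts in Stem and 1017, 1175 and 1093 in AbsPro. It had 116, 183, 438 and 553 in SecPDG, 306, 203, 341, 231 and 432 in Tuft, 228, 483, 395, 624 and 917 in Ent and 229.6 and 91.0 in EEC. All of these lay below every Stem and AbsPro library. It fell against Stem in SecPDG (log2 fold change -2.00 ± 0.36 SE, adjusted p = 4.01e-05), Tuft (log2 fold change -2.09 ± 0.34 SE, adjusted p = 4.01e-06) and EEC (log2 fold change -3.12 ± 0.55 SE, adjusted p = 7.83e-06) under every setting and omission. The call in Ent (log2 fold change -1.31 ± 0.33 SE, adjusted p = 0.000939) was lost with DESeq2 size factors, library totals, DESeq2's test and edgeR's default. Gsta3 had 409, 456 and 488 in Stem and 692, 745 and 642 in AbsPro, against 52.9, 85.8, 185 and 258 in SecPDG and 58.6, 87.1, 105, 75.9 and 169 in Tuft. It was higher in AbsPro than in SecPDG (log2 fold change 2.23 ± 0.38 SE, adjusted p = 2.74e-05). It was also called lower in SecPDG than in Stem (log2 fold change -1.61 ± 0.39 SE, adjusted p = 0.00328). That difference was not called by edgeR's default or DESeq2, nor without Stem library 2 (-1.54, adjusted p = 0.0126), Stem library 3 (-1.53, adjusted p = 0.0129), SecPDG library 1 (-1.32, adjusted p = 0.0309) or SecPDG library 2 (-1.38, adjusted p = 0.0282).

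The 7 mu class genes form a cluster on chromosome 3 (mm10, 107895821 to 108044894), and reads on stretches that 2 of them have in common would have been dropped, so that their counts are uncertain. Gstm1 led the class by count, with 4070.5, 4058 and 4331 normalized counts in Stem, 4771, 5305 and 4707 in AbsPro and 2681, 2421, 2396 and 2474 in SecPDG. It had 903, 1149.6, 1615, 808 and 2100.4 in Tuft, 933, 1274, 707, 2536 and 1774 in Ent and 667 and 1342 in EEC. Every Stem and AbsPro library lay above every other library. It fell in Tuft (log2 fold change -1.65 ± 0.32 SE, adjusted p = 0.000108), Ent (log2 fold change -1.52 ± 0.32 SE, adjusted p = 0.000152) and EEC (log2 fold change -2.02 ± 0.45 SE, adjusted p = 0.000289). It was also lower in Ent than in AbsPro (log2 fold change -1.77 ± 0.32 SE, adjusted p = 5.25e-05), each under every setting and omission. In SecPDG the difference did not pass (log2 fold change -0.74 ± 0.34 SE, adjusted p = 0.22). Gstm3 fell in Tuft (log2 fold change -2.51 ± 0.32 SE, adjusted p = 1.49e-08) and SecPDG (log2 fold change -1.69 ± 0.32 SE, adjusted p = 8.52e-05). Its means ran from 908 ± 170 (SD, n = 3) in Stem to 158 ± 48.4 (SD, n = 5) and 279 ± 74.0 (SD, n = 4). Gstm2 fell in Tuft as well (log2 fold change -1.37 ± 0.30 SE, adjusted p = 0.000585).

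Of the other 4 mu class genes, Gstm4, Gstm6 and Gstm7 were called in none of the 8 comparisons, with Stem means of 249, 139 and 194 normalized counts and Tuft means of 185, 58.3 and 117. Gstm5 had 318, 392, 375 and 454 in SecPDG and 281, 290.2, 281, 228 and 406 in Tuft, beside 179.8, 189.5 and 359 in Stem, which they overlap or exceed. In EEC Gstm5 stood at 19.9 and 35.2, below every library of the other cell types, and fell against Stem (log2 fold change -3.07 ± 0.75 SE, adjusted p = 0.000736), a call lost in the fit of EEC and Stem alone. A difference in fold change between 2 genes of the cluster was not tested.

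Of the remaining cytosolic classes, Gsto1, an omega class enzyme that also reduces dehydroascorbate, had 4071, 4386 and 4835 normalized counts in Stem and 5154, 5109 and 4047 in AbsPro, against 1107, 1209, 2151, 1233 and 2018 in Tuft and 199 and 993 in EEC, with no overlap. It fell in Tuft (log2 fold change -1.52 ± 0.33 SE, adjusted p = 0.000469) and EEC (log2 fold change -2.83 ± 0.49 SE, adjusted p = 7.08e-06) under every setting and omission. Gstp1, the pi class enzyme, was called in none of the 8 comparisons: it had 1126 ± 97.3 (SD, n = 3) in Stem, 1224 ± 108 (SD, n = 4) in SecPDG and 644 ± 210 (SD, n = 5) in Tuft. Its near copy Gstp2, at a mean of 31.0 in Stem and 82.2 in Ent, cannot be separated from it with confidence. Gstt2 and Gstt3, theta class genes, fell in Ent (log2 fold change -1.26 ± 0.32 SE, adjusted p = 0.00101, and log2 fold change -0.97 ± 0.32 SE, adjusted p = 0.00918), but DESeq2 called neither, and the call of Gstt3 was made under 4 of the 10 other settings. Gstt1, which acts on small halogenated molecules, had 1.8 and 536 in the EEC libraries and was called in none. Gstz1, the isomerase of tyrosine breakdown, was lower in Ent than in AbsPro (log2 fold change -1.10 ± 0.35 SE, adjusted p = 0.00956), a call made under 3 of the 10 other settings.

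Mgst1, a membrane enzyme that also reduces lipid peroxides, had 2241, 2892 and 2745 normalized counts in Stem and 2496, 2102 and 2030.5 in AbsPro. It had 760.1, 385, 631 and 909.8 in SecPDG, 403, 322, 536, 326 and 665 in Tuft, 604, 976, 606, 1079 and 1376 in Ent and 146 and 409 in EEC. No library of these 4 cell types reached the lowest of Stem or AbsPro. It fell against Stem in SecPDG (log2 fold change -1.96 ± 0.32 SE, adjusted p = 7.83e-06) and Tuft (log2 fold change -2.53 ± 0.31 SE, adjusted p = 5.08e-09). It fell as well in Ent (log2 fold change -1.50 ± 0.30 SE, adjusted p = 6.23e-05) and EEC (log2 fold change -3.17 ± 0.47 SE, adjusted p = 3.09e-07), and all 4 calls held under every setting and omission. Mgst3 and Mgst2 belong to the same family and act on leukotrienes as well. Mgst3 had 2746, 3106 and 2680.4 in AbsPro and 714, 1066, 643 and 1239.9 in SecPDG, and was called higher in AbsPro (log2 fold change 1.64 ± 0.38 SE, adjusted p = 0.00208). That call was not made by edgeR's default, nor without AbsPro library 2 (1.57, adjusted p = 0.0144), SecPDG library 1 (1.54, adjusted p = 0.0176) or SecPDG library 3 (1.50, adjusted p = 0.0199). In Tuft it had 1085, 1138, 1484, 2202 and 1872, beside 1763, 1805 and 1659.7 in Stem (log2 fold change -0.16 ± 0.36 SE, adjusted p = 0.739). Mgst2 was called in none of the 8 comparisons, with means of 354 in Stem and 581 in Tuft.

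Promoter sequence was looked at for 3 motifs tied to regulators of such genes, as a description of the letters only. RefSeq windows of GRCm38.p6, from 250 bases before the gene start to 50 after it, were matched by symbol to 53 of the 60 genes. The antioxidant response element bound by Nrf2 (TGACNNNGC, either strand) was found in 4 of 65 windows of the members (6.15%), beside 12.4% of all 32851 windows. These 4 windows are printed because they belong to Mgst1 and Gsta3, which fell together in SecPDG and Tuft, and to Gstm5 and Gstm7, which were called in neither. Capitals mark the motif, and each run is read in the direction of the gene.
Mgst1, chr6:138140461-138140489, plus strand, motif on the reverse strand: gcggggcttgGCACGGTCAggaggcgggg
Gsta3, chr1:21240454-21240482, plus strand: aactcaggcaTGACATTGCatttttcttc
Gstm5, chr3:107895802-107895830, plus strand: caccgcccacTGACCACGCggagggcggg
Gstm7, chr3:107931725-107931753, minus strand: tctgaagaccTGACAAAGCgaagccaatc
The core of the dioxin response element (GCGTG, either strand) was in 12 member windows (18.5%) and in 32.4% of all. In Gstm5 its reverse overlaps the antioxidant element. The Cdx site (TTTATG, either strand) was in 5 (7.69%) and in 11.9% of all. No match says only that these letters are not in the window, and a match is no site of binding.

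Of the 19 sulfotransferase genes, 6 reached the mean of 50. Sult1a1, on chromosome 7 (mm10, 126672865 to 126676432), had 5245, 8295 and 8155 normalized counts in Stem and 7027, 7324 and 9348 in AbsPro. It had 1124, 1155, 1374 and 1578 in SecPDG, 1099.7, 950.2, 906, 715 and 1261 in Tuft and 2480.3, 2708, 1616, 3654 and 4224 in Ent. Each Ent library lay above each SecPDG and Tuft library and below each Stem library. It fell in SecPDG (log2 fold change -2.47 ± 0.40 SE, adjusted p = 5.66e-06) and Tuft (log2 fold change -2.87 ± 0.38 SE, adjusted p = 2.79e-08). It was higher in AbsPro than SecPDG (log2 fold change 2.59 ± 0.40 SE, adjusted p = 2.98e-06), and these 3 calls held under every setting and omission. The call in Ent (log2 fold change -1.30 ± 0.36 SE, adjusted p = 0.00233) was lost with DESeq2 size factors, DESeq2's test and edgeR's default. In EEC the libraries held 233 and 3296, and the call there was lost in the fit of EEC and Stem alone.

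Sult1b1, which sulfates thyroid hormones among other phenols, had the largest called rise against Stem. Its libraries held 1268, 2226, 2833, 2987 and 5256 normalized counts in Ent and 1844, 1221 and 2239.6 in AbsPro, and 289.9, 752 and 493 in Stem. They held 142, 106, 184 and 161 in SecPDG and 118, 41.6, 207, 70.2 and 97.0 in Tuft. It rose in Ent against Stem (log2 fold change 2.50 ± 0.39 SE, adjusted p = 1.53e-06). It was higher in AbsPro than in SecPDG (log2 fold change 3.55 ± 0.44 SE, adjusted p = 2.39e-08) and fell in Tuft (log2 fold change -2.28 ± 0.46 SE, adjusted p = 0.000184), all 3 under every setting and omission. The difference between AbsPro and Stem (log2 fold change 1.78 ± 0.41 SE, adjusted p = 0.0108) just missed the threshold. It passed with DESeq2 size factors, library totals, the fit of the 2 cell types alone and the replicate number as a block. It also passed without any 1 of Stem library 2, AbsPro library 2, Tuft libraries 4 and 5, Ent libraries 1 and 5 and the EEC libraries, at adjusted p from 0.00039 to 0.00845 in edgeR. The fall in SecPDG (log2 fold change -1.78 ± 0.46 SE, adjusted p = 0.00637) was lost without Stem library 2 (-1.31, adjusted p = 0.114), without Stem library 3 and without any of the SecPDG libraries. Its neighbour on chromosome 5, Sult1d1, which sulfates catecholamines, had 5809.9, 6461 and 8612 in AbsPro and 977, 1593, 1964 and 1968 in SecPDG, with no overlap (log2 fold change 2.10 ± 0.40 SE, adjusted p = 0.000137). In Ent Sult1d1 stood at 2834, 3873, 2477, 4003 and 3824, within the range of the Stem libraries, 2144, 4395 and 4154. The remaining gene of this cluster of 3 (mm10, 87513339 to 87591594), Sult1e1, the estrogen sulfotransferase, had a mean of at most 11.5 in every cell type.

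Sult1c2 went the other way in SecPDG. It had 773, 749.7, 944 and 851 normalized counts there and 126, 293 and 270.2 in Stem, with no overlap, and it rose under every setting and omission (log2 fold change 1.84 ± 0.36 SE, adjusted p = 0.000164). It also stood higher than Stem in Tuft, at 526, 656, 435, 423 and 734 (log2 fold change 1.27 ± 0.35 SE, adjusted p = 0.00555), and in Ent, at 269, 381, 389, 813 and 598 (log2 fold change 1.09 ± 0.36 SE, adjusted p = 0.00822). Both of these were lost with the edgeR default, the replicate block and thinned counts. Without Stem library 1 they were 0.99 (adjusted p = 0.0553) and 0.81 (adjusted p = 0.072). Sult2b1, which sulfates cholesterol and pregnenolone, was called in none of the 8 comparisons, with 270.5, 156, 199, 179 and 256 in Ent and 29.3, 49.2, 27.8, 58.7 and 51.9 in Tuft. Sult6b1 was called higher in Ent than in Stem (log2 fold change 2.16 ± 0.69 SE, adjusted p = 0.00711) on means of 96.9 and 20.9, but the estimated background made up 10.3% of its Ent level and its count was 0 in 1 Stem library. Neither DESeq2 nor edgeR's default called it, and it was called in 10 of the 22 fits that leave out 1 library.

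**Figure D4:**
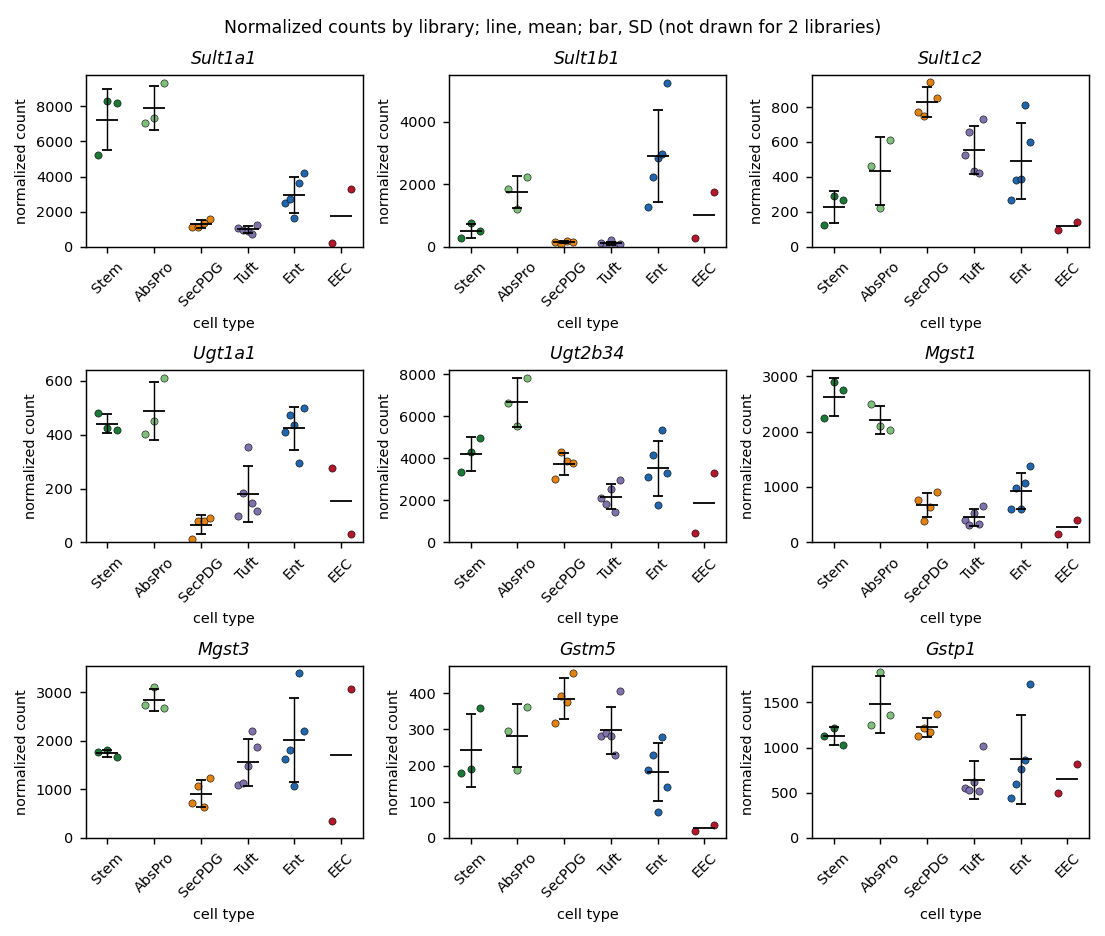
Normalized counts (vertical axes, from 0) of 9 genes in each library (points) by cell type (horizontal axes), with the mean as a line and the SD as a bar for cell types of 3 or more libraries. Sult1a1, Ugt1a1 and Mgst1 have their lowest libraries in the secretory populations or EEC, Sult1b1 is highest in Ent, Sult1c2 in SecPDG, and Gstp1 and Ugt2b34 overlap between most cell types.

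The 29 genes below the mean of 50 are the 8 other Sult2 genes, Sult2a1 to Sult2a8, with Sult1c1, Sult1e1, Sult3a1, Sult4a1 and Sult5a1, 5 of the Ugt1a genes (Ugt1a2, Ugt1a5, Ugt1a6b, Ugt1a9 and Ugt1a10), Ugt2a1, Ugt2a2, Ugt2a3, Ugt2b1, Ugt2b36, Ugt2b37 and Ugt2b38, and Gsta1, Gsta2, Gsto2 and Gstt4. Their means over the libraries of a cell type reached at most 54.4 in Stem, 92.2 in AbsPro, 12.2 in SecPDG, 55.8 in Tuft, 69.6 in Ent and 139.9 in EEC. In Stem 15 of the 29 were at 0 in all 3 libraries, in AbsPro 10, in SecPDG 3 and in EEC 8, and none in Tuft or Ent. A count of 0 allows up to 3 counts, which is 0.134 to 0.151 CPM in a Stem library and covers counting error only. The median over them was 0 in Stem and 28.3 in Ent, and the estimated background, which depends on length, had a median of 0.2 in Stem, 2.5 in Tuft, 4.9 in Ent and 6.2 in EEC. Genes with a mean below their own estimate numbered 2 of the 29 in Tuft, 0 in Ent and 17 in EEC, those at 0 included. The estimate was at the median 24.4% of the mean in Tuft and 25.0% in Ent. A low count in Tuft, Ent or EEC may thus be part background and is not by itself read as expression. The part of background in it was not tested further.

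Of these 29, 9 reached a mean of 50 in at least 1 cell type. Gsta1, an alpha class enzyme of the gut, stood at 80.5, 166 and 30.0 normalized counts in AbsPro and 0, 13.4 and 10.8 in Stem, had an adjusted p of 0.00953 and missed only the mean of 50. In Ent against Stem others of the 29 also had an edgeR adjusted p below 0.01, all fitted higher, such as Sult4a1 (0.000132) and Sult1c1 (0.000237). The estimated background was 18.61% and 11.57% of these 2 Ent means. In EEC Sult4a1 (7.6e-06) and Ugt1a9 (1.36e-05) were among such genes. All missed the mean of 50, so the counts of calls against Stem depend on that limit. Reads common to Gsta1 and its near copy Gsta2 would have been dropped. Ugt1a6b stood at 57.2, 49.6 and 143 in AbsPro and Ugt1a5 at 49.5, 19.5 and 116, each with 1 library well above the other 2. Ugt2b36 stood at 71.4, 32.5 and 66.6 there. Sult4a1 stood at 164 and 115 in EEC, Gsto2 at 146 and 0, Ugt1a9 at 0 and 171, Sult2a6 at 112 and 0 in EEC and Sult1c1 at 74.6, 72.3, 78.6, 36.5 and 54.0 in Ent. For Gsto2, Ugt1a9 and Sult2a6 a single EEC library held the whole EEC count. In Ent, Gsto2 (mean 69.6) and Sult2a6 (51.6) also reached the mean of 50, with no library at 0. So did Sult4a1 (63.4), Ugt1a6b (61.1), Ugt2b36 (56.7) and Ugt1a5 (51.4) in Ent. Sult4a1 reached it in Tuft (55.8) and Ugt1a6b in Stem (54.4). The estimated background was 7.21% (Ugt1a6b) to 18.61% (Sult4a1) of these Ent means.

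**Figure D5:**
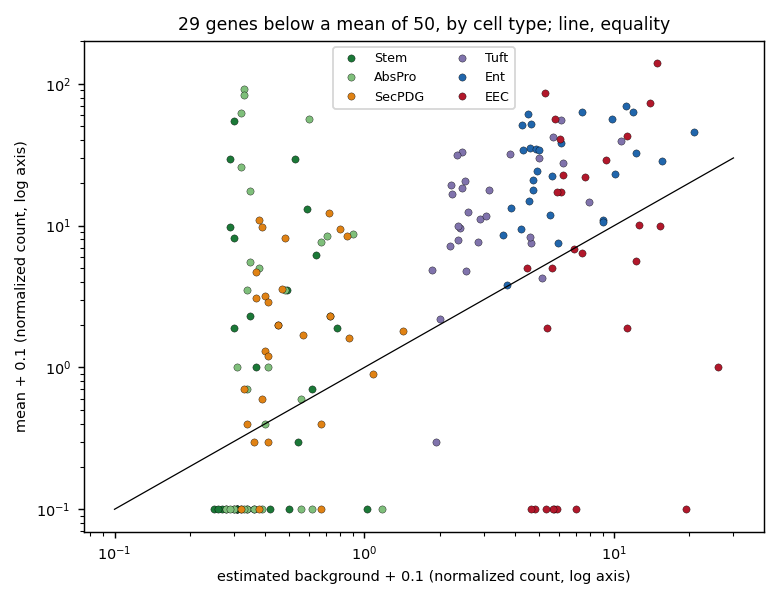
Mean normalized count of the 29 genes below a mean of 50 (vertical axis) against the estimated background of the same gene (horizontal axis), both plus 0.1 on log axes, 1 point for each gene and cell type. Points on the line are equal to the estimate, and points of Ent and EEC lie to the right of those of Stem, AbsPro and SecPDG.

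Genes that supply, move or control the conjugating enzymes are given by lists, which were chosen with earlier results of these data known. Counts of calls in these lists are to be read beside the shares of all genes called, given above for the same comparisons. Of 5 genes listed around UDP-glucuronic acid, 1 was called higher and 1 lower than Stem in each of SecPDG and Tuft. The higher one was Slc35b1, a transporter of the endoplasmic reticulum, in SecPDG (log2 fold change 2.26 ± 0.35 SE, adjusted p = 3.09e-06) and Tuft (log2 fold change 1.75 ± 0.34 SE, adjusted p = 0.000108). What Slc35b1 carries was not measured, and its rise is not read as a rise in UDP-glucuronic acid supply. The lower one was Ugdh, the dehydrogenase that makes UDP-glucuronic acid. Ugdh had 3979 ± 768 normalized counts (SD, n = 3) in Stem and 8521 ± 1677 (SD, n = 3) in AbsPro. The means were 1163 ± 188 (SD, n = 4) in SecPDG and 917 ± 160.4 (SD, n = 5) in Tuft, and 3951 ± 1359 (SD, n = 5) in Ent. Ugdh was higher in AbsPro than SecPDG (log2 fold change 2.87 ± 0.41 SE, adjusted p = 7.9e-07). Of the 8 genes for glutathione supply, 1 was called higher and 1 lower in SecPDG, 1 and 4 in Tuft, 1 and 4 in Ent and 1 and 3 in EEC. Gss, the synthetase, stood at 4349 ± 343 (SD, n = 3) in Stem and 1002 ± 327 (SD, n = 5) in Tuft. The largest called changes of that list were those of Ggt1, which begins the breakdown of glutathione and its conjugates, in Ent against AbsPro (log2 fold change 4.64 ± 0.88 SE, adjusted p = 7.45e-05) and of Slc7a11. Slc7a11, the cystine transporter, was lower in AbsPro than SecPDG (log2 fold change -2.46 ± 0.52 SE, adjusted p = 0.000679). Of the 8 genes for sulfate and PAPS, 2 were called higher in SecPDG, 1 lower in Tuft, none in Ent and 4 lower in EEC. The sulfate transporter Slc26a1 was higher in AbsPro than SecPDG (log2 fold change 3.96 ± 0.74 SE, adjusted p = 0.000101), and Slc35b3 was lower in EEC than Stem (log2 fold change -1.56 ± 0.48 SE, adjusted p = 0.00583).

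Of the 9 genes for pumps, 1 was called lower in SecPDG, 2 higher and 1 lower in Tuft, and 2 higher in each of Ent and EEC. Abcc2, the pump for glucuronide and glutathione conjugates at the lumen side, rose in Ent (log2 fold change 4.19 ± 0.67 SE, adjusted p = 1.37e-06), Tuft (log2 fold change 3.19 ± 0.74 SE, adjusted p = 0.000974) and EEC (log2 fold change 3.35 ± 0.92 SE, adjusted p = 0.00223). Its mean went from 12.6 ± 11.9 (SD, n = 3) in Stem to 240.2 ± 92.6 (SD, n = 5) in Ent. These levels are low and lie in the libraries with the most background. Abcb1b had the largest called rise of the list, in Ent (log2 fold change 4.20 ± 0.86 SE, adjusted p = 8.16e-05), and Abcc6 the largest fall, in SecPDG (log2 fold change -2.87 ± 0.57 SE, adjusted p = 0.000241). Of the 6 measured genes for the removal of conjugates, 2 were called higher than Stem in AbsPro (Anpep and Dpep1), 1 in SecPDG and 1 in Tuft (Anpep), and none in EEC. In Ent Anpep and Dpep1 were called higher, and Arsb and Gusb, lysosomal enzymes that split sulfates and glucuronides, lower. Dpep1, a dipeptidase, had the largest rise, in AbsPro against SecPDG (log2 fold change 4.41 ± 0.48 SE, adjusted p = 1.24e-09), and Anpep, an aminopeptidase, was lower in AbsPro than in SecPDG (log2 fold change -2.24 ± 0.36 SE, adjusted p = 5.94e-06). The largest rise of Anpep against Stem was in SecPDG (log2 fold change 4.31 ± 0.41 SE, adjusted p = 5.05e-12).

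Of the 17 regulators, 2 were called lower in SecPDG, 5 lower and 1 higher in Tuft, 4 lower and 1 higher in Ent, 2 lower and 1 higher in EEC and none in AbsPro. Nr1i2, the xenobiotic receptor PXR, fell in SecPDG (log2 fold change -1.23 ± 0.32 SE, adjusted p = 0.00698) and Tuft (log2 fold change -1.32 ± 0.31 SE, adjusted p = 0.00108). So did Ppara, a fatty acid receptor, which was also higher in AbsPro than SecPDG (log2 fold change 1.60 ± 0.31 SE, adjusted p = 0.000222). Nfe2l2, which encodes Nrf2, fell in Tuft (log2 fold change -1.41 ± 0.33 SE, adjusted p = 0.00107), and Cdx2, an intestinal transcription factor, fell in Ent against AbsPro (log2 fold change -2.15 ± 0.36 SE, adjusted p = 1.47e-05). Of the 7 other Nrf2 targets, none was called in AbsPro against Stem, 1 lower in SecPDG, 2 lower in Tuft, 1 higher and 2 lower in Ent, and 2 each way in EEC, with median log2 fold changes of the list of 0.44, 0.44, -0.34, 0.01 and 0.01. Nqo1, a quinone reductase, was called lower than Stem in SecPDG, Tuft, Ent and EEC, with 1078 ± 189 (SD, n = 3) in Stem, 205 ± 102 (SD, n = 4) in SecPDG and 169.9 ± 76.5 (SD, n = 5) in Tuft. The change was largest in EEC (log2 fold change -3.00 ± 0.52 SE, adjusted p = 5.4e-06), where Osgin1 was higher than in Stem (log2 fold change 2.61 ± 0.50 SE, adjusted p = 3.64e-05). Of the 10 conjugating enzymes that the rule leaves out, Hpgds, a sigma class glutathione transferase that makes prostaglandin D2, was higher in Tuft than Stem (log2 fold change 2.36 ± 0.38 SE, adjusted p = 3e-06) and than SecPDG (log2 fold change 3.15 ± 0.38 SE, adjusted p = 6.57e-09). Ugt8a, which makes galactosylceramide, had the largest difference, higher in AbsPro than SecPDG (log2 fold change 4.92 ± 1.07 SE, adjusted p = 0.000934). Gstk1, the kappa class enzyme, had the largest fall, in SecPDG (log2 fold change -1.41 ± 0.34 SE, adjusted p = 0.00252).

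Of the 78 calls of members in the 8 comparisons, 44 were also made under each of the 10 other settings and without each library in turn, and 51 were made by the default setting of edgeR. In SecPDG these 44 comprise Gsta4, Gstm3, Mgst1, Sult1a1, Ugt1a1 and Ugt1a6a, all lower than Stem, and Sult1c2, higher. In Tuft they are 14 genes, all lower. In Ent they are Gstm1, Gstm3, Mgst1 and Ugt2b35, lower, and Sult1b1, higher. In EEC they are Gsta4, Gstm1, Gstm2, Gsto1, Mgst1 and Ugt2b35, all lower. In AbsPro against SecPDG they are 9 genes, all higher, and in Ent against AbsPro Gstm1, Gstm2 and Gstm3, all lower. Goblet marker genes were abundant in both SecPDG and Tuft, and reads outside genes were most frequent in Ent and EEC, and their part in these differences was not tested.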

How the data were processed

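Colon crypt cells of 6 sorted types were profiled by RNA-seq in 22 libraries, grouped by the cell type in the labels. The authors deposited raw gene counts, made by aligning 100 bp paired reads to mm10 with STAR 2.5.2a and counting with HTSeq 0.6.1p1 without strand, from at least 2500 cells a library. This counting drops reads that align to several places or to 2 genes (15.5% to 20.7% and 0.14% to 0.84% of those assessed), which lowers paralogs with like sequence, and no molecular identifiers were used. The 5 rows that name no gene (53.9% to 91.6% of reads assessed) were left out, as were 15 tables of other measurements.

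Counts were scaled by TMM and tested in edgeR 4.0.16 (R 4.3.3) by a quasi-likelihood fit of all 22 libraries with 1 term, the cell type, on genes kept by filterByExpr. Two-sided p-values were adjusted by Benjamini-Hochberg over 22781 genes, and calls were limited to adjusted p below 0.01 and an average of 50 or more normalized counts. The SE of a fold change was derived from the test, as the size of the log2 fold change over the square root of its F statistic. The edgeR setting was chosen after results were seen. The package default (the older quasi-likelihood after estimateDisp) was run first and its results for these genes were known. A further 8 settings, 9 in all, were then compared by their whole-series counts, and the bias-adjusted fit was taken because it came closest to earlier processing of these data. It called 134, 1134, 2748, 5060 and 4541 genes in AbsPro, SecPDG, Tuft, Ent and EEC against Stem, and the default called 83, 707, 1468, 3082 and 3197.

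The members, gene lists and tests were chosen with earlier results of these data known. Genes with a mean of at least 50 are named with values, and others only where a cell type mean reached 50. From each helper list the genes with the largest called rise and fall are named. Slc35b1, Arsb and Gusb, and Ugdh, Gss, Abcc2, Anpep, Dpep1, Nr1i2, Nfe2l2, Nqo1 and Hpgds in further comparisons, were given after their values were seen. Background was estimated from 1574 genes of the Olfr, Vmn1r, Vmn2r, Taar, Krtap and Defb families. Exon lengths and positions were those of a GENCODE mouse annotation, matched by symbol, with all exons of a gene joined. The annotation behind the authors' counts may differ, so levels per kilobase, their ranks and the background estimates depend on that choice. Alternatives were the DESeq2 1.42.0 Wald test, DESeq2 size factors, library totals, no filter, another minimum mean, fits of 2 cell types, counts thinned to 4122122, a replicate block and omission of each library, and, chosen after seeing the data, the default and a robust edgeR fit. The edgeR code was checked on simulated data. By the study's methods the libraries of a cell type came from independent mice and sorts, so p-values measure the spread between mice or pools of mice. Figures were drawn with matplotlib 3.10.9.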

Additional observations from a re-analysis of the deposited data

Results flagged for a closer look

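In 7 of 93 sets of values, each a gene in a cell type of 4 or 5 libraries, 1 library lay farther from the rest than the 95% critical value of Dixon's ratio, which chance alone gives in about 1 in 20. Tuft library 5 was high for 3 genes. It held 1013.8 normalized counts of Gstp1, where the other 4 held 517.6 to 614.3, 923.5 of Mgst2, where they held 465.1 to 544.4, and 1763.3 of Sult1d1, where they held 752.2 to 1015.9. This library had 20892532 counts on genes and 43.9% of reads outside genes, against 59.9% to 68.4% in the other Tuft libraries. The part of either in these values was not tested.

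SecPDG library 1 stood apart for 3 genes, in both directions. It held 14.2 of Ugt1a1, where the other 3 held 78.3 to 91.1, and 148.4 of Ugt2b35, where they held 382.4 to 423.9. Its 1129.8 of Gstt3 lay above the 689.9 to 725.7 of the other 3. Ent library 4 held 117.5 of Gstt1, where the other 4 held 68.2 to 81.7.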

How the results depend on the processing

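No called fold change of a member changed sign under any alternative run. The balance of calls did turn in Ent against Stem, from 3 higher and 10 lower to 7 and 6 with DESeq2 size factors, 7 and 7 with library totals and 4 and 4 with DESeq2. The shares of all genes called were 22.2%, 26.7%, 25.7% and 21.5%, in that order. In Ent against AbsPro, with 0 higher and 11 lower, both scalings called 4 higher and 7 lower, where 18.9% and 17.8% of all genes were called. The default setting, added after seeing the data, called 7 members in SecPDG against Stem where the setting used called 12, 6 in Ent against Stem where it called 13, and 3 in Ent against AbsPro where it called 11, and 51 of the 78 calls in all. With the default, 3.1%, 13.5% and 5.09% of all genes were called in these comparisons. DESeq2 called 8 in Ent against Stem, 5 in Ent against AbsPro and 4 in Tuft against SecPDG, with 21.5%, 15.4% and 6.76% of all genes called. The fit of 2 cell types alone called 6 in EEC against Stem, 5 in Tuft against SecPDG and 1 in AbsPro against Stem. It called 8.06%, 7% and 3.29% of all genes there. In AbsPro against Stem, DESeq2 size factors, library totals and the minimum mean over the pair also called 1, with 1.01%, 0.935% and 0.593% of all genes called. Library totals called 1 in Tuft against SecPDG, with 2.8% of all genes called.

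With 1 library left out, members called ranged against Stem from 12 to 17 in EEC, 9 to 17 in Ent, 14 to 18 in Tuft, 7 to 15 in SecPDG and 0 to 1 in AbsPro. The range was 11 to 13 in AbsPro against SecPDG, 9 to 20 in Ent against AbsPro and 0 to 4 in Tuft against SecPDG. For single genes, 196 values passed the threshold under an alternative and not in the fit reported, and 172 lost it, with 27 more lost under the settings added later.

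With the replicate number as a block, 17 members were called in Ent against AbsPro, 1 in AbsPro against Stem and 2 in Tuft against SecPDG. The shares of all genes called with the block were 23.3%, 0.917% and 6.26%. The numbers were not treated as pairing the libraries, since the labels do not tie them to mice or sorts. Deviations of same-numbered libraries of different cell types had a median correlation of 0.002 (range -0.391 to 0.501, 44 pairs). Those with different numbers had 0.007 (range -0.552 to 0.624, 154 pairs). A median over all pairs cannot show whether single libraries share mice or a sort. With 2 EEC libraries, of which 1 has 4122122 counts, and high background in Ent and EEC, low genes in these cell types are the least certain.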
